A study of Mus musculus with 74 samples.

Results

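The genes described here encode the machinery of KAP1 and heterochromatin silencing and enzymes that oppose it: KAP1 itself and its TRIM relatives, histone H3 lysine 9 (H3K9) methyltransferases, HP1 proteins, DNA methyltransferases and their readers, TET dioxygenases, histone chaperones and remodellers, and the deacetylases, demethylase and SUMO protein that act with them. The list held 37 genes, all of which were found among the 22234 protein-coding genes of gencode vM1 on the assembled chromosomes of mouse build mm9. For each gene, the peaks were taken whose 200 bp window had its midpoint in the gene body or within 50 kb of it. This gave 175 distinct peaks of 53011, or 0.33% (95% Wilson interval 0.285 to 0.383). The 37 windows together covered 5.46 Mb, or 0.206% of the genome. These intervals cover counting error only.

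KRAB zinc finger proteins (KRAB-ZFPs) are DNA-binding repressors that recognise their targets through an array of zinc fingers and recruit KAP1 through the KRAB domain. KAP1, encoded by Trim28, is a scaffold that brings in the H3K9 methyltransferase SETDB1, HP1 proteins, the NuRD deacetylase complex and DNA methylation, and much of this silencing acts on retrotransposons in early embryonic cells. The TET dioxygenases act against DNA methylation and are not corepressors of KRAB-ZFPs. A peak is a called enrichment of the tagged protein and says nothing of the activity of the gene beside it. In the descriptions of peaks, a protein is said to have bound where a peak was called.

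The study mapped the binding of single KRAB-ZFPs by ChIP-seq: DNA pulled down with an antibody against the protein's epitope tag was sequenced. Peaks of 67 KRAB-ZFPs were used, each from 1 sample, so no value has a replicate error and no difference between KRAB-ZFPs was tested. In F9 EC cells, a mouse embryonal carcinoma line, 18 KRAB-ZFPs carried an N-terminal 3XFLAG tag (antibody F1804) and 40 a C- or N-terminal 3XHA tag (antibody ab9110). In B6 ES cells, embryonic stem cells of the B6 mouse strain, 9 carried a C-terminal 3XHA tag (clone 16B12). No genotype, dose or time varied between the samples. All proteins were overexpressed from stably integrated vectors, so occupancy of the endogenous proteins was not measured, and the binding data hold no marker levels against which the cell lines could be checked. Tags summed over the peaks of a KRAB-ZFP had a median of 11203 and extremes of 1681 and 540220. Library depth is not known from these data, and a gene without a peak of some KRAB-ZFP may still be bound by it. The thresholds for calling peaks also differed between samples, so counts of peaks are not on 1 scale across KRAB-ZFPs.

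Each of the 37 genes had at least 1 peak in its window. Among all protein-coding genes 90.9% did, so a peak within this distance was the usual state of a mouse gene. The windows held between 1 and 12 peaks with a median of 4 peaks of 3 KRAB-ZFPs. The density was 32.1 peaks per Mb (exact 95% Poisson interval 27.5 to 37.2), beside 22.9 per Mb over the windows of all protein-coding genes and 20.0 per Mb over the genome. Gm13152, the KRAB-ZFP with most peaks at these genes, contributed 6.41 per Mb (4.47 to 8.92) in the windows of the listed genes and 2.8 per Mb in those of all coding genes. Without it the densities were 25.7 (21.6 to 30.3), 20.1 and 18 per Mb. Restricting all samples to a p under 1e-10 and an enrichment over 20 left 116 of the 175 peaks and densities of 21.3, 14.4 and 12.8 per Mb.

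**Figure D1:**
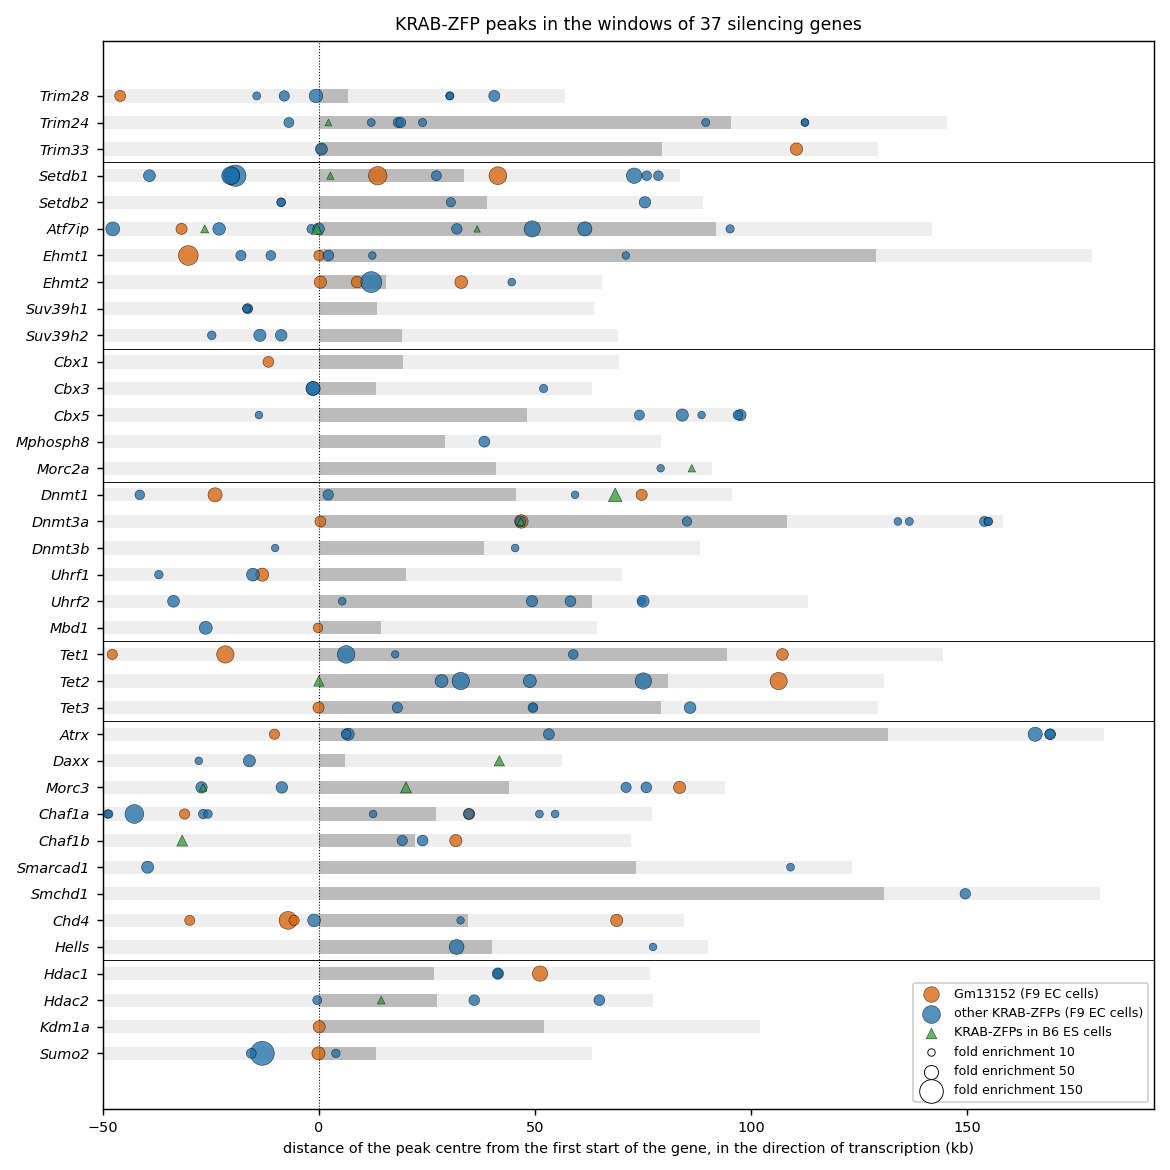
Each row is 1 of the 37 genes, ordered by role, and each symbol is a peak at its distance in kb from the first start of the gene, in the direction of transcription. Dark bars are gene bodies, light bars the 50 kb on either side, and symbol area rises with the deposited fold enrichment. Setdb1 and Sumo2 have the highest symbols upstream of their starts, and the rows of the HP1 and HUSH-linked group have no symbol on a dark bar.

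Peaks lay inside the gene body of 22 of the 37 genes (59.5%, 43.5 to 73.7), beside 38.7% of all protein-coding genes. The bodies of the listed genes were longer, with a median of 38.9 kb against 15.5 kb. Among genes with a body between 20.2 and 79.3 kb, the quartiles of the listed genes, the count was 12 of 19 (63.2%, 41.0 to 80.9) beside 55.4% of all such genes, which lies within the interval. By the summit's annotation, 81 of the 175 peaks (46.3%) were intronic, 68 (38.9%) intergenic, 16 in a coding exon, 8 in a UTR and 2 in another exon, of whichever gene lay there.

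A peak lay within 1 kb of an annotated transcript start in 15 of 37 genes (40.5%, 26.3 to 56.5), beside 20.4% of all protein-coding genes. The listed genes had a median of 6 annotated starts and up to 18, against a median of 2 over all coding genes. The part of this in the share was not tested. With only the first start of each gene the count was 12 of 37 (32.4%, 19.6 to 48.5) beside 16.8%. Gm13152 alone had a peak at a start in 8 of 37 (21.6%, 11.4 to 37.2) beside 11.9%. Without Gm13152 the counts were 10 of 37 (27.0%, 15.4 to 43.0) beside 11.0% for any start, and 5 of 37 (13.5%, 5.91 to 28) beside 8.0% for the first start.

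CpG-rich starts were commoner in the list, at 75.7% (28 genes) against 35.0% of coding genes. This class, a GC content of at least 55% and a CpG observed-to-expected ratio of at least 0.65 within 500 bp of the first start, was set after the values were seen. Within it Gm13152 had a peak at the first start in 6 of 28 (21.4%, 10.2 to 39.5) beside 23.8% of all such genes. The other KRAB-ZFPs together had one in 4 of 28 (14.3%, 5.7 to 31.5) beside 13.1%. In this class the shares over all such genes thus lay within the intervals of the listed genes, which are wide. Outside it, Gm13152 had a peak at the first start of Dnmt3a and Tet3, and other KRAB-ZFPs at that of Atf7ip. The share of all coding genes outside the class was not computed, so no background stands beside these genes. The part of CpG content in the share at starts was not tested.

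**Figure D2:**
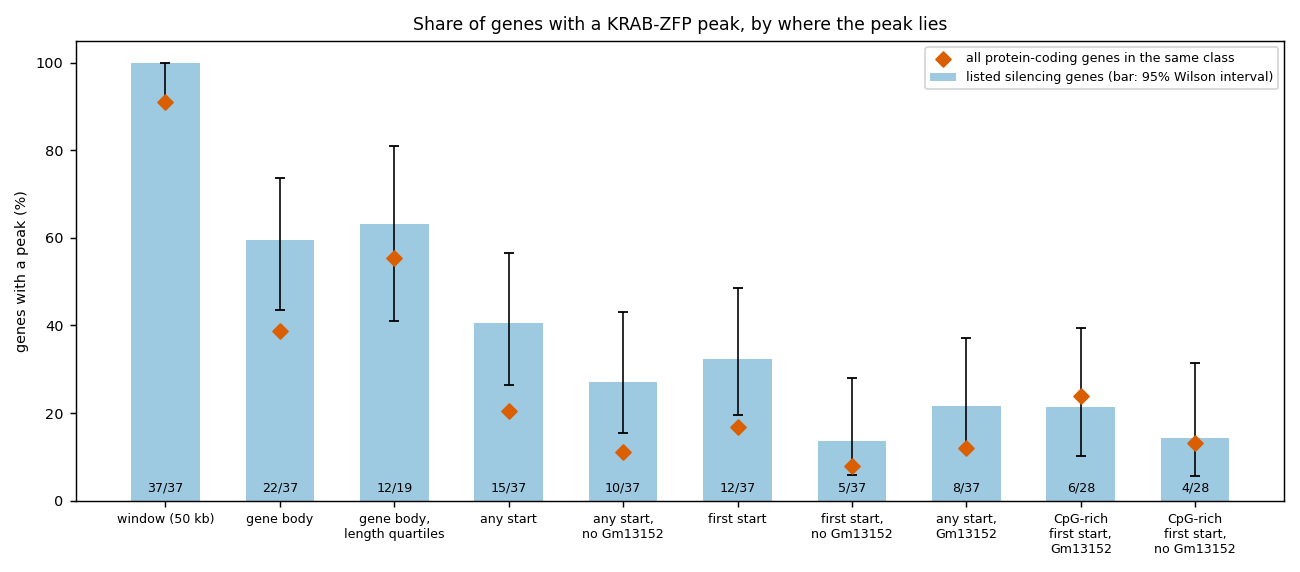
Bars give the percentage of listed genes with a peak in each class of position, with 95% Wilson intervals and the counts at the foot. Diamonds give the percentage over all protein-coding genes of the same class. The 21.4% and 14.3% bars for CpG-rich first starts stand beside diamonds at 23.8% and 13.1%.

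The sequences under the peaks at transcript starts are shown first, since these are the sites nearest to an annotated start of a listed gene. Those at Ehmt2 and Atrx are at starts internal to the gene, 12166 and 53255 bp from its first start. One is given for each role group with such a peak outside a UTR, at the highest fold, as the 60 bases around the summit on the plus strand of mm9. Capitals mark the 8-base motif of the KRAB-ZFP, described with the motifs, and a line in lower case has none.
Trim28, Gm14412 (chr7:13608832-13608891): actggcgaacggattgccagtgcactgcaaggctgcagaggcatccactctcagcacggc
Ehmt2, LOC102638055 (chr17:35047551-35047610): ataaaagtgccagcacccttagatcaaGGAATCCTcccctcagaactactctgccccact
Dnmt3a, Gm13152 (chr12:3806369-3806428): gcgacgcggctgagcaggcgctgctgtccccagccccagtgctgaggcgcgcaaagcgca
Tet3, Gm13152 (chr6:83391693-83391752): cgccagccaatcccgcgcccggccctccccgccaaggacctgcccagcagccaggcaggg
Atrx, Zfp273 (chrX:103071452-103071511): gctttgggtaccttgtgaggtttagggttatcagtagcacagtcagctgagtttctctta
Sumo2, Gm13152 (chr11:115397627-115397686): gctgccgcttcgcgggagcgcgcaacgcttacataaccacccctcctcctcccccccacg
Only the Ehmt2 site of LOC102638055 held its motif in these 60 bases. The sites of Gm13152 beside Dnmt3a, Tet3 and Sumo2 had GC contents of 73.3%, 78.3% and 70% in the printed stretch with 7, 5 and 7 CpG dinucleotides.

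Trim28 encodes KAP1. Its gene (ENSMUSG00000005566.7, chr7:13609501-13616384, plus strand) is short, at 6884 bp, and had no peak in its body, but 7 KRAB-ZFPs had a peak in its window. Gm14412 bound 640 bp upstream of the start with 158 tags and a 45.84-fold enrichment, the highest fold in the KAP1 family. Of the other peaks, 4 lay at the starts of neighbouring genes that encode zinc finger proteins themselves. Gm13152 (65 tags, 27.9-fold) lay 36 bp from the start of Zfp446. Gm13247 (20 tags, 12.34-fold) lay 4 bp from the start of Zbtb45. Zfp709 and Gm13235 (17 and 43 tags, 13.28- and 10.9-fold) lay with summits 2 bp apart at the start of Mzf1, 23.4 kb past the end of Trim28. Zfp759 bound 7.97 kb upstream of Trim28 in a sequence with a median of 51 copies in the genome (24.26-fold), and Zfp617 bound 33.7 kb past its end (28.84-fold).

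Trim24 and Trim33 encode relatives of KAP1 that read histone modifications and act as transcriptional cofactors. Trim24 (chr6:37820811-37916296) had peaks of 9 KRAB-ZFPs, 6 of them in introns, but their folds were low, with a median of 12.5 and a range of 7.35 to 22.62, and 3 of 9 passed the strict thresholds. The highest was Zfp738 in intron 1 with only 13 tags. Zfp58 bound 6.91 kb upstream of the gene (55 tags, 22.45-fold). Trim33 (chr3:103083216-103162691) had only 3 peaks, but 2 of them lay in its first exon. Gm13152 (86 tags, 20.9-fold) lay 545 bp and Gm14412 (73 tags, 35.09-fold) 624 bp into the gene. Gm14412 had a peak within 1 kb of the first start of both Trim28 and Trim33. The share of all coding genes with such a Gm14412 peak was not computed. In all, Gm14412 had 9 of its 2787 peaks (0.323%) in the windows of the list, near the 0.33% over all KRAB-ZFPs.

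Setdb1 encodes the H3K9 methyltransferase that KAP1 recruits. Its gene (ENSMUSG00000015697.8, chr3:95127447-95161124, minus strand) had 11 peaks of 9 KRAB-ZFPs, 10 of which passed the strict thresholds, and the median fold was 60.5. No peak lay within 1 kb of a start. Upstream, Zfp961 bound 19.3 kb from the start with 285 tags and a 120.49-fold enrichment. About 1 kb further, Zfp808 (541 tags, the most of any of the 175 peaks, 70.36-fold) and Gm13139 (139 tags, 85.19-fold) had summits 154 bp apart. In the body, Gm13152 bound intron 8 with 171 tags and an 89.07-fold enrichment. Gm14412 bound intron 14 (64 tags, 22.32-fold), and Gm14420, in ES cells, intron 3 (10 tags, 8.97-fold, false discovery rate 30.17%). Past the end, Gm13152 lay 480 bp from the start of Lass2 (215 tags, 82.14-fold) and Zfp661 605 bp from that of Fam63a (120 tags, 60.55-fold).

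Atf7ip encodes the partner that stabilises SETDB1, and it had the most KRAB-ZFPs of all, with 12 peaks of 10. The symbol has 2 adjacent gene records in the annotation, which were joined (chr6:136467372-136559373, plus strand). At the start, Zfp429 bound 32 bp upstream (168 tags, 32.63-fold) and Gm14401, in ES cells, 444 bp upstream (51 tags, 27.45-fold, false discovery rate 27.78%). Gm14406 had 2 intronic peaks, in intron 5 (198 tags, 67.2-fold) and intron 7 (111 tags, 50.24-fold), both in single-copy sequence. Further upstream, Zfp273 (188 tags, 48.04-fold, false discovery rate 23.08%) lay 47.7 kb and Gm14412 (250 tags, 38.52-fold) 23.0 kb from the start. Setdb2, a relative of Setdb1, had 4 peaks of 4 KRAB-ZFPs. Gm14436 lay in intron 11, 656 bp upstream of an internal start (19 tags, 18.21-fold). Gm14391 and Gm14418 shared a site 8.69 and 8.7 kb upstream, and both had a false discovery rate of 100%.

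Ehmt1 and Ehmt2 encode GLP and G9a, the euchromatic H3K9 methyltransferases. At Ehmt1 (chr2:24646289-24775129, minus strand), Gm13152 bound in the first coding exon, 34 bp from a start (103 tags, 24.15-fold). Its stronger peak in the window lay 4 bp from the start of Zmynd19 (289 tags, 102.34-fold). At Ehmt2 (chr17:35035414-35050997, plus strand) 3 peaks lay in the body, each within 1 kb of an annotated start. Gm13152 bound 104 bp upstream of a start in intron 1 (136 tags, 36.36-fold) and again in intron 15 (73 tags, 31.81-fold). LOC102638055 bound intron 21 with 232 tags and a 115.87-fold enrichment, the highest fold of any peak within 1 kb of a start of a listed gene. The starts beside introns 15 and 21 are internal to the gene. Suv39h1 and Suv39h2, which encode the pericentromeric H3K9 trimethylases, had 3 peaks each and none in the body. Beside Suv39h1, Gm13225, Gm13251 and Zfp709 lay within 423 bp of each other near the start of Was, and the Gm13225 window had a median of 8007 copies.

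The genes for HP1 and the HUSH-linked factors had 13 peaks in 5 windows, the lowest density of the 7 groups, and none in a gene body or at a start. That density, 20.0 per Mb, stood beside 22.9 per Mb over the windows of all coding genes. Among all protein-coding genes, 38.7% had a peak in the body and 20.4% at a start, and 5 genes are too few to compare with these shares. Cbx1, Cbx3 and Cbx5 encode the HP1 proteins that bind methylated H3K9. Cbx1 had 1 peak, of Gm13152 at the start of Snx11 (56 tags, 27.06-fold). Cbx3 had 3, of which Gm13150 (205 tags, 47.67-fold) and Gm21082 (108 tags, 50.08-fold) shared the same window, 1318 bp upstream of Cbx3 and 852 bp into Hnrnpa2b1. The Gm13150 peak had a false discovery rate of 50% and the Gm21082 peak one of 0. Cbx5 had 6 peaks of 5 KRAB-ZFPs, with folds of 10.32 to 36.32. Mphosph8, the H3K9me3 reader of the HUSH complex, had 1 peak, of Zfp961 9.14 kb past its end (45 tags, 27.72-fold). Morc2a, an ATPase that works with HUSH, had 2 peaks past its end with folds of 10.58 and 10.11.

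Among the DNA methylation genes, Dnmt3a, a de novo methyltransferase, had 10 peaks of 8 KRAB-ZFPs (ENSMUSG00000020661.9, chr12:3806007-3914443, plus strand). Gm13152 bound 100 bp upstream of a start at the 5′ end (49 tags, 28.18-fold), and Zfp882 511 bp upstream of an internal start in intron 6 (20 tags, 19.29-fold). In intron 3, 3 KRAB-ZFPs shared a locus at chr12:3852606-3852998. There Gm13152 had 94 tags and a 45.16-fold enrichment, Zfp273 66 tags and 26.26-fold, and Gm14419, in ES cells, 15 tags and 12.04-fold. The false discovery rate of the Zfp273 peak was 9.52%. Dnmt3b, the other de novo enzyme, had only 2 weak peaks, of Gm13225 and Zfp709, with folds of 10.19 and 11.14, and neither passed the strict thresholds.

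Dnmt1, the maintenance methyltransferase, had 6 peaks of 5 KRAB-ZFPs, with 1 in its body, of Zfp874a in intron 1 (87 tags, 25.01-fold). The highest fold of this group lay in its window, of Gm13152 at 72 bp from the start of S1pr2 (98 tags, 49.99-fold). Uhrf1, which guides DNMT1 to hemimethylated DNA, had 3 peaks outside the gene, with folds of 14.6 to 41.95. Its relative Uhrf2 had 6 peaks of 6 KRAB-ZFPs. Zfp617 bound intron 13, 290 bp from an internal start, in a sequence with a median of 75 copies (26 tags, 27.01-fold), and Gm13154 bound in exon 9 (44 tags, 30.05-fold). Mbd1, a methyl-CpG binding protein, had Gm13152 181 bp upstream of its start (52 tags, 20.0-fold) and Zfp961 26.2 kb upstream (84 tags, 41.46-fold).

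The TET dioxygenases oxidise 5-methylcytosine. All 3 genes had peaks in the body, beside 38.7% of all protein-coding genes. Their bodies are long, from 79306 to 94549 bp, against a median of 15.5 kb over all coding genes. The median fold of the group, 32.7 over 17 peaks of 11 KRAB-ZFPs, was the highest of the 7 groups, beside 23.0 over all 53011 peaks. Tet2 (chr3:133126643-133207354, minus strand) had 6 peaks of 6 KRAB-ZFPs, all past the strict thresholds, with a median fold of 55.7. Zfp961 bound intron 2 (181 tags, 78.74-fold), AW146154 exon 10 (200 tags, 69.45-fold), Gm14406 intron 2 (83 tags, 41.95-fold) and Zfp617 intron 1 (58 tags, 41.19-fold). Gm14401, in ES cells, lay 29 bp into the first exon (40 tags, 23.85-fold, false discovery rate 23.26%). Gm13152 lay 25.7 kb past the end (180 tags, 77.23-fold).

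At Tet1 (chr10:62267318-62361866, minus strand) LOC102638055 bound intron 1 with 242 tags and an 80.4-fold enrichment, the highest of the group. Zfp961 bound in exon 4 (28 tags, 20.73-fold). Gm13152 had 3 peaks in that window, at the starts or first kb of Ccar1, Slc25a16 and Dna2. The strongest lay 44 bp from the start of Slc25a16 (314 tags, 77.92-fold). At Tet3 (chr6:83312367-83391672, minus strand) Gm13152 bound 50 bp upstream of the start (72 tags, 29.08-fold).

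Chaf1a, the large subunit of the histone chaperone CAF-1, had 11 peaks of 7 KRAB-ZFPs, the highest density of any window at 86.5 peaks per Mb, with Setdb1 next at 82.3. In contrast to Setdb1, the median fold was only 14.9, since 4 peaks were of Gm13225, with folds of 11.07 to 14.95. The highest was Zfp961 42.7 kb upstream (230 tags, 91.99-fold). Chaf1b, the middle CAF-1 subunit, lies beside Morc3, an ATPase of the MORC family, so 4 peaks fell in both windows. One of these, of Zfp931 in ES cells in Morc3 intron 6, had a false discovery rate of 100%. Morc3 had 7 KRAB-ZFPs in its window but none at a start.

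Atrx, a remodeller that works with DAXX to deposit histone H3.3, had 7 peaks of 7 KRAB-ZFPs (chrX:102992954-103124736, minus strand), all past the strict thresholds. Zfp273 bound in coding exon 9, 878 bp from an internal start (75 tags, 28-fold, false discovery rate 10%). The highest fold was that of Gm14412 668 bp from the start of Fgf16 (247 tags, 50.14-fold). Daxx had 3 peaks, none in its 6176 bp body. Chd4, the ATPase of NuRD, had 6 peaks, 4 of them of Gm13152. The strongest lay 7.1 kb upstream (311 tags, 83.47-fold), and LOC102638055 lay 1084 bp upstream (153 tags, 39.62-fold), just beyond the 1 kb limit. Hells, the remodeller LSH that supports DNA methylation, had Gm14406 in intron 19 (110 tags, 55.6-fold). Smarcad1 and Smchd1, both linked to heterochromatin upkeep, had 2 and 1 peaks, all outside their bodies, although these are 73384 and 130855 bp long.

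Sumo2 encodes the modifier that is attached to KAP1. AW146154 bound 13.1 kb upstream with 347 tags and a 155.1-fold enrichment, the highest fold of all 175 peaks. At the start, Gm13152 bound 66 bp upstream (181 tags, 42.3-fold). Kdm1a, the demethylase LSD1, had a single peak, of Gm13152 75 bp downstream of a start (100 tags, 35.45-fold). Hdac2, a deacetylase, had Zkscan17 345 bp upstream of its start with 8 tags, the fewest of the 175 peaks, and a 17.18-fold enrichment. Hdac1, the other deacetylase, had no peak in its body. Gm13152 had 135 tags and a 59.08-fold enrichment 264 bp from the start of the neighbouring 1700125D06Rik. A locus of Gm13152, Zfp456 and Zfp810 lay 14.8 to 14.9 kb past the end of Hdac1. The Zfp456 peak there had a false discovery rate of 16.67%.

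**Figure D3:**
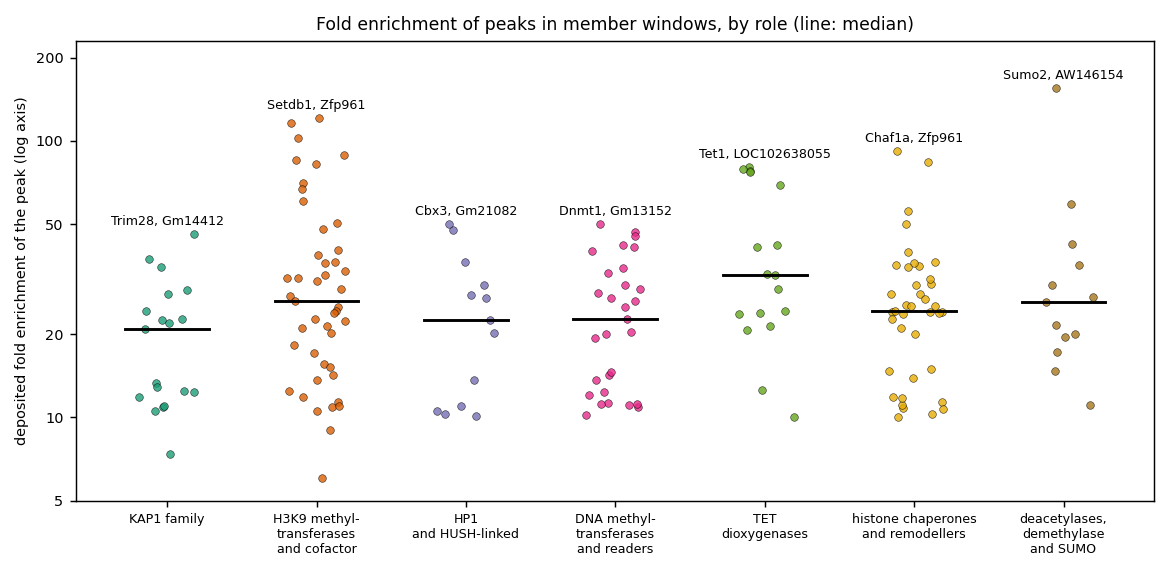
Each point is a peak, placed by the role of the gene in whose window it lies, against its deposited fold enrichment on a log axis, and lines are medians. The labelled peaks are the highest of each group, from 45.84 for Gm14412 at Trim28 to 155.1 for AW146154 at Sumo2, and the medians lie between 20.9 and 32.7.

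Across the 7 role groups the density of peaks ran from 20.0 per Mb for the HP1 and HUSH-linked genes to 43.2 per Mb for the H3K9 methyltransferases and ATF7IP. The KAP1 family had 39.4, the DNA methylation genes 32.6, the TET genes 30.7, the chaperones and remodellers 29.6 and the last group 25 per Mb. Groups of 3 to 9 genes were not compared by a test. The deposited folds of the 175 peaks had a median of 24.2 with a range of 6.06 to 155.1, close to the median of 23.0 over all peaks. Tags had a median of 57 against 43. Folds were computed by the authors per sample and depend on its depth and control.

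Of the 67 KRAB-ZFPs, 45 had a peak in a window of the list, 20 of them a single one, and 22 had none. The 45 had more peaks in all, with a median of 383 against 194 for the 22. For Gm8898, the one of the 22 with most peaks, 0 of 1517 allows a share of up to 0.198%, which is near the 0.206% of the genome in these windows. Gm13152 had 35 peaks in the windows of 22 genes, of 5189 in all (0.675%, lower bound 0.485). Gm13225 had 14 of 3570, Gm13251 9 of 3300, Gm14412 9 of 2787, and Gm14406, Zfp709 and Zfp961 8 each, of 5685, 1223 and 1457. Gm14406, with the most peaks of all KRAB-ZFPs, had 0.141% of its peaks here, against 0.33% over all. By cell line, 162 of the 175 peaks came from F9 cells and 13 from ES cells. The ES peaks of Gm14401 and Gm14420 had false discovery rates between 11.98% and 36.69%.

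**Figure D4:**
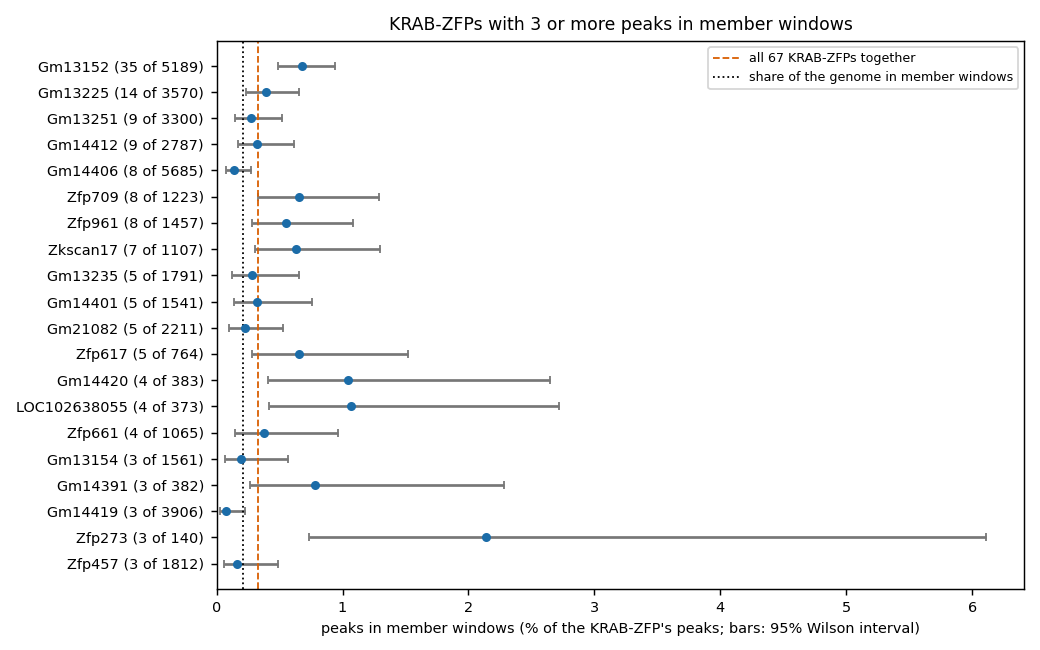
Points give the percentage of each KRAB-ZFP's peaks that lay in windows of the list, for those with at least 3 such peaks, with 95% Wilson intervals. The dashed line is the 0.33% over all KRAB-ZFPs and the dotted line the 0.206% of the genome in these windows. Gm13152, at 0.675%, has the narrowest interval that lies above both lines. The wider intervals of Zfp273, LOC102638055, Gm14420 and Zfp709 also lie above both, that of Zfp709 only just, with a lower limit of 0.332%. KRAB-ZFPs were chosen by the count that is plotted, so one with few peaks in all enters only at a high share. Zfp273, with 3 of 140 peaks, is such a case, and these intervals do not show a preference.

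The windows also hold other genes. The nearest start of a protein-coding gene belonged to a listed gene for 86 of the 175 peaks (49.1%, 41.8 to 56.5) and to another gene for 89. Of these 89, 29 lay within 1 kb of that other start, 14 of them of Gm13152. The Gm13152 peaks described above at the starts of Zmynd19, Lass2, S1pr2 and Slc25a16 belong to this class.

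Few peaks in the windows of the list lay in sequence with many identical copies. Copy number was measured as the median number of exact occurrences in mm9 of the 24-base words of a window. Copies that differ in sequence are not counted, so a diverged repeat can pass as single-copy or low-copy. The share of peaks in repeats of any age was not measured. By this measure 17 of 175 peaks (9.71%, 6.15 to 15.0) lay in sequence with 10 or more copies, beside 34.4% of all peaks and 26.1% of the peaks in windows of all protein-coding genes. Single-copy windows made up 79.4% (139 peaks), beside 58.3%. The multi-copy peaks included 2 of Gm14406 past the end of Hdac2 (7495 and 7428 copies), 2 of Gm21082 upstream of Suv39h2 (908 and 1108) and 1 of Gm14412 beside Cbx5 (28713). Gm14406 at Atf7ip and Hells, in contrast, lay in single-copy sequence. Reads with several equal positions were placed at 1 of them at random, so a peak in a young repeat may be split over its copies. Leaving out the multi-copy peaks gave 29.0 peaks per Mb in the windows of the list, 16.9 in those of all coding genes and 13.1 over the genome.

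Loci called in more than 1 KRAB-ZFP, where 200 bp windows overlapped by at least 25%, numbered 11 of 162 (6.79%), beside 6.31% of the 48767 loci of the series, so sharing was at the background. The sequences of 9 of them are given because windows of different proteins overlapped there. Each is the 60 bases around the summit of the peak with the highest fold, on the plus strand of mm9. Windows were joined in order, so a stretch need not lie in the window of every protein named. That of the Dnmt3a intron locus lies outside the Zfp273 window, chr12:3852606-3852805. Capitals mark the motif of a KRAB-ZFP called at that locus, and words of other KRAB-ZFPs were not marked. The locus at the start of Mzf1 in the Trim28 window lies in a UTR and is not printed.
Trim24, Gm13235 and Zfp457 (chr6:37933314-37933373): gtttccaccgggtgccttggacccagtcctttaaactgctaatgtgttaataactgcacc
Trim33, Gm13152 and Gm14412 (chr3:103083811-103083870): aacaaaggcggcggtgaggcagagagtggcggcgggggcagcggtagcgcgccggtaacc
Setdb2, Gm14391 and Gm14418 (chr14:60068384-60068443): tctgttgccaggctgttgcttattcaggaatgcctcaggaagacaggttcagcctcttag
Cbx3, Gm13150 and Gm21082 (chr6:51419012-51419071): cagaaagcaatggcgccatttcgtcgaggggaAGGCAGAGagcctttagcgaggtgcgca
Dnmt3a, Gm13152, Gm14419, Zfp273 (chr12:3852869-3852928): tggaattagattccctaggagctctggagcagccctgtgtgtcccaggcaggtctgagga
Dnmt3a, Gm13235 and Zfp709 (chr12:3960952-3961011): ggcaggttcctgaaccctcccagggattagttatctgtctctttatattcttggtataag
Atrx, Gm13251 and Gm6710 (chrX:102955462-102955521): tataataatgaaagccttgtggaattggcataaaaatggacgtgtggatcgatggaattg
Chaf1a, Gm13152 and Gm21082 (chr17:56214576-56214635): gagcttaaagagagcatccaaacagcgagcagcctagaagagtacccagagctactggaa
Hdac1, Gm13152, Zfp456, Zfp810 (chr4:129178470-129178529): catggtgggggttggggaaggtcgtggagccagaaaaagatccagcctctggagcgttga
Among these stretches only that of the Cbx3 locus held the motif of a KRAB-ZFP called there, and it was the same for both of its proteins. The 2 proteins had identical windows there, as did Gm13251 and Gm6710 at the Atrx locus. The Dnmt3a intron locus joined samples of both cell lines.

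A further 9 pairs of peaks had summits of different KRAB-ZFPs within 500 bp without sharing a locus, such as Zfp808 and Gm13139 upstream of Setdb1 at 154 bp, Gm13225 and Gm13251 past the end of Uhrf2 at 270 bp, Gm13225 and Zfp709 upstream of Chaf1a at 264 bp, and Gm14401 and Zfp429 at the Atf7ip start at 412 bp. In all 39 of the 175 peaks (22.3%) had a summit of another KRAB-ZFP within 500 bp, beside 22.0% of all peaks.

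A motif was searched for the KRAB-ZFPs of the printed sites and of peaks within 1 kb of a start. Those with the highest fold of a role group were searched too. Gm13225 and Gm14406, with 14 and 8 peaks here, were among those left out. The motif was the 8-base word with the largest excess in the peaks of a KRAB-ZFP outside the windows of the list. The excess was taken over sequence 1 kb to either side, on both strands. A match is a description of the letters, not proof of a binding site, and the percentage outside the windows is that on which the word was chosen. Among the KRAB-ZFPs searched, Zfp961 had the clearest recurrence in these windows. Its word GGGCGCCA (TGGCGCCC on the other strand) was in 46.8% of its outside peaks, in 0.242% of the flanking windows and in 1.61% of the peaks of all KRAB-ZFPs, and 7 of its 8 peaks near listed genes held it. The peak without it lay at the start of D14Ertd668e, in the window of Setdb2. As background, TGGCGCCC opens the primer binding site at which a lysine tRNA starts reverse transcription of some retroviruses. The sites are printed to show how far the likeness reaches around the word, in the direction of GGGCGCCA, with the word in capitals. The site near Mbd1 is not shown.
Zfp961 near Setdb1 (chr3:95180387-95180426, minus strand): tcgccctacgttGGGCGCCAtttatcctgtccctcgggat
Zfp961 near Chaf1a (chr17:56137159-56137198, minus strand): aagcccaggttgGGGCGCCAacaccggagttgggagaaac
Zfp961 near Tet2 (chr3:133174482-133174521, minus strand): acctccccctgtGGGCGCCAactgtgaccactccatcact
Zfp961 near Setdb1 (chr3:95200259-95200298, minus strand): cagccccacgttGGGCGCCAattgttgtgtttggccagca
Zfp961 near Mphosph8 (chr14:57325415-57325454, plus strand): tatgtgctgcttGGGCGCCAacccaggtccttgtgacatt
Zfp961 near Tet1 (chr10:62302936-62302975, minus strand): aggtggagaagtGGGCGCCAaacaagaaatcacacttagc
Around the word, the 2 Setdb1 sites shared 17 of 32 bases, and every other pair of these sites between 5 and 14. The first 3 lie in single-copy sequence and had the highest folds, 120.49, 91.99 and 78.74. The Mphosph8 and Tet1 sites were also single-copy and had the lowest folds, 27.72 and 20.73. The second Setdb1 site had a median of 101 copies and a 33.69-fold enrichment. The word lay between 3 and 22 bp from the summit in the 7 peaks, with a median of 14, beside a median of 10 bp in the 678 outside peaks that held it.

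For Zfp617 the word was ACCATGAC (GTCATGGT), in 79.8% of its outside peaks and 0.922% of flanking windows, and 4 of its 5 peaks near listed genes held it. The one without it was in intron 1 of Atrx. The sites are given in the direction of ACCATGAC, since the likeness reached beyond the word at 3 of the 4.
Zfp617 near Tet2 (chr3:133178931-133178970, minus strand): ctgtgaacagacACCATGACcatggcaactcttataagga
Zfp617 near Daxx (chr17:34030303-34030342, minus strand): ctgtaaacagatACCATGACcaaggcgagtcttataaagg
Zfp617 near Trim28 (chr7:13650090-13650129, plus strand): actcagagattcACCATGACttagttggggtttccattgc
Zfp617 near Uhrf2 (chr19:30163251-30163290, plus strand): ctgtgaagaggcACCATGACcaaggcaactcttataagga
Of the 32 bases printed around the word, 29 were identical between the Tet2 and Uhrf2 sites and 25 between Tet2 and Daxx, while the Trim28 site shared 8 to 11 with the others. The Zfp617 windows at Tet2, Daxx and Trim28 had medians of 2, 3 and 2 copies, and that at Uhrf2 75.

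Gm21082 and Gm13150 had the same word, AGGCAGAG (CTCTGCCT), in 90.7% and 55.7% of their outside peaks and in 2.43% and 1.03% of flanking windows. It was in 4 of 5 Gm21082 peaks near listed genes and in the 1 Gm13150 peak, which is the shared Cbx3 site. The Gm21082 sites are shown because they set a single-copy site beside repeats.
Gm21082 near Cbx3 (chr6:51419032-51419071, plus strand): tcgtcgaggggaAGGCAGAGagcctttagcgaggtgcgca
Gm21082 near Suv39h2 (chr2:3405914-3405953, plus strand): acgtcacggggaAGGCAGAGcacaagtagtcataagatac
Gm21082 near Suv39h2 (chr2:3401020-3401059, plus strand): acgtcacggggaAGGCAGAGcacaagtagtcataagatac
Gm21082 near Cbx5 (chr15:102972629-102972668, minus strand): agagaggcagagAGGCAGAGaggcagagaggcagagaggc
The Suv39h2 sites were identical to each other over these 40 bases and lay in sequence of 1108 and 908 copies. The Cbx5 site was a tandem run of the word (4189 copies), and only the Cbx3 site was single-copy. Of the 32 bases around the word, the Cbx3 site shared 15 with those of Suv39h2 and 9 with that of Cbx5.

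For the other KRAB-ZFPs searched, at most 3 peaks near listed genes held the word. Gm13152 had AGAGGGTC in 21% of outside peaks, 0.863% of flanking windows and 3 of its 35 peaks here. LOC102638055 had AGGATTCC in 15.7%, 0.136% and 1 of 4, the last being the Ehmt2 peak. Gm14412 had GCCTCAGC in 42.6%, 1.67% and 1 of 9, and Gm14401 TCTGGACA in 33.2%, 0.553% and 0 of 5. Gm14419 had CAGAACTG in 66.4%, 0.73% and 1 of 3. For Gm14326, Gm14391, Gm14418, Gm6710 and Zkscan17 the word was a run of A. For Zfp457 and Zfp709 it was a CA repeat. These words are common in any sequence and tell little. The absence of a word says only that these letters were not in the window.

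The wider pathway was described by 52 further genes, among them Dnmt3l, the SUMO ligases of the PIAS family, other NuRD subunits and the H4K20 methyltransferases. Of these, 51 had a peak in the window, 34 in the body and 21 within 1 kb of a start, 11 of them with Gm13152. The density was 30.4 peaks per Mb over 234 peaks. The shares were 98.1%, 65.4%, 40.4% and 21.2%, beside 100%, 59.5%, 40.5% and 21.6% in the list. At a start, Gm13152 had 291 tags and a 120.49-fold enrichment at Mta3, a NuRD subunit, and 280 tags and a 69.44-fold enrichment at Suv420h1. Zfp961 had 181 tags and an 82.92-fold enrichment at Kdm4b, an H3K9 demethylase.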

How the data were processed

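The deposited table listed ChIP-seq peaks of epitope-tagged KRAB-ZFPs in F9 EC or B6 ES cells. Reads were mapped by the authors to mm9 with Bowtie or Bowtie2, and reads with several best positions were placed at random. Peaks were called per sample with MACS14 (MACS 1.4.2 in the submitters' processing notes), without pooling, at p thresholds of 1e-10 or 1e-05 and, in F9 cells, enrichment thresholds of 20 or 10, and were set to 200 bp around the summit. The authors deposited the tags of each peak as raw counts. The deposited score of a peak equals the negative log10 of its p-value multiplied by 10. The fold enrichment is a ratio deposited by the authors. The deposited false discovery rate is a percent. The study loosened thresholds where few peaks were found, and it set some samples aside for low signal, which the table does not mark.

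Rows under 1 name (244 peaks) could not be tied to a label and were left out, as was 1 labelled KRAB-ZFP without rows. Window starts were read as counted from 0 and are printed counted from 1. The table does not state this, and positions may be off by 1 base. Genes and transcripts came from gencode vM1 on NCBIM37, which is mm9. Protein-coding records with the same symbol, chromosome and strand were joined where they lay less than 50 kb apart. The sequence of 1 shared locus is not reported here. Copy number used exact 24-base words on both strands with 10 copies as the limit. Intervals are 95% Wilson for shares and exact Poisson for densities. A count of 0 of n was given the limit of 3 of n. No test was made, since each KRAB-ZFP had 1 sample. The members and lists were chosen with earlier results of these data known. Values are given for genes with a peak within 1 kb of a start, the 10 genes with most KRAB-ZFPs and the highest fold per role group. The remaining genes of the list, their peaks and the Zfp961, Zfp617 and Gm21082 sites were added after the values were seen. Window assignment, locus merging and copy counting were tested on simulated data. Alternatives were the strict thresholds, a false discovery rate of at most 5%, windows of 10 or 100 kb, starts within 500 bp or 5 kb or the first start only, a 50% overlap, copy limits of 2 and 100, midpoints of the called intervals, F9 samples only, and leaving out Gm13152, multi-copy peaks or 4 KRAB-ZFPs with high false discovery rates. Python 3.11.15, numpy 2.4.6, pandas 2.3.3, scipy 1.17.1 and matplotlib 3.10.9 were used.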

Additional observations from a re-analysis of the deposited data

How the results depend on the processing

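Of the 80 recomputed values of 10 results in 15 settings, 67 stayed close to the value given and 13 moved, where a count had to stay within 1.5 times and a share or density within its counting interval. With a p under 1e-10 and an enrichment over 20, the windows of the list held 116 peaks of 29 KRAB-ZFPs at 21.3 peaks per Mb, with 4 loci of 2 or more KRAB-ZFPs. With a false discovery rate of at most 5% the density was 26.4 peaks per Mb, and without Gm13152 it was 25.7. Windows of 10 kb held 83 peaks, 6 shared loci and a share of 85.5% of peaks with a listed gene's start nearest. Windows of 100 kb held 299 peaks, 20 shared loci and a share of 33.4%. With a limit of 2 copies, 20.6% of peaks were multi-copy. The settings that use the first start of each gene were added after the data were seen and gave 12 genes for any KRAB-ZFP and 8 for Gm13152. No paired analysis was possible because each KRAB-ZFP had 1 sample and no result comes from a test.

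Without replicates, no value here separates a KRAB-ZFP from its sample. Thresholds, controls and depth differed between samples, and their part in the counts was not tested. Of the 175 peaks, 31 had a false discovery rate above 5%, 5 of them 100%. Peaks are of overexpressed proteins. No expression, KAP1 or H3K9me3 values enter here, so nothing is shown of regulation. Windows of 50 kb also hold other genes.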
